A study of Mus musculus with 6 samples.

Results

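The genes of oxidative phosphorylation are described here across 6 libraries of mouse dentate neuroepithelium, the part of the hippocampal wall from which the dentate gyrus forms. Genes were taken by symbol: the mitochondrial mRNAs (mt-Nd, mt-Co, mt-Cytb and mt-Atp genes) and the nuclear Nduf, Sdh, Uqcr, Cox4 to Cox8 and Atp5 genes. The pattern matched 99 rows, which are 97 genes of the 35274 in the table, 84 of them nuclear and 13 mitochondrial. Ndufs3 and Uqcrc1 each had a second row with identical values and were counted once. The embryos were labelled E14 and were wild type, SOX11f/+ (heterozygous below, HTZ in the labels) or SOX11f/f (homozygous below, HOMO), with 2 libraries per genotype. The labels add the words haplodeficient (heterozygous) and homodeficient (homozygous) and name no Cre driver. Whether each library is a separate embryo is not said, and p-values therefore measure only the spread between these libraries.

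Oxidative phosphorylation is carried out by 5 complexes of the inner mitochondrial membrane. Complexes I (NADH dehydrogenase), III (cytochrome bc1) and IV (cytochrome c oxidase) pump protons while passing electrons to oxygen, complex II (succinate dehydrogenase) feeds in electrons without pumping, and complex V (ATP synthase) uses the gradient to make ATP. Subunits of complexes I, III, IV and V come from both genomes, whereas complex II is encoded in the nucleus only. During brain development neural progenitors rely much on glycolysis, and respiration gains weight as neurons form.

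Sox11 was listed at 192 and 130 TPM (transcripts per 1000000) in the wild-type libraries, 56.1 and 50.1 in the heterozygous and 5.23 and 5.06 in the homozygous ones, in the order of their labels. The progenitor genes Sox2 (73.0 to 104 TPM), Nes (34.2 to 44.3) and Pax6 (20.1 to 28.9) were present in every library, and so were Gfap, an astrocyte gene (268 to 576), and Rbfox3, a gene of maturing neurons (91.1 to 142). Both genes are known as markers of cells later than a neuroepithelium, so tissue and stage are given here only as labelled. Ttr, the main product of choroid plexus, reached 11259 TPM in heterozygous replicate 1 and 6421 in homozygous replicate 1, against 184 in homozygous replicate 2, 4.44 in heterozygous replicate 2 and 3.07 and 2.04 in wild type. TPM values keep no read depth, so the depth is unknown. In tissue samples, fewer cells of a type and less RNA per cell cannot be told apart.

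The mitochondrial mRNAs were by far the more abundant. Their 13 genes together made up 10.1 to 14.2% of all TPM in a library, and the 84 nuclear genes 2.33 to 2.81%. Of the nuclear genes, 79 averaged 1 TPM or more and were tested. All 13 mitochondrial genes were tested. Cox8b, the heart and muscle form of subunit 8, Cox8c, its testis form, and Atp5l2-ps, annotated as a pseudogene by its symbol, were listed at 0 in every library. Cox6a2, a heart and muscle isoform (0.27 to 1.39 TPM), and Cox7b2 (at most 0.20 TPM) fell below the limit.

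Among the nuclear genes the highest levels belonged to the ATP synthase beta subunit Atp5b, at 1217 and 1235 TPM in the wild type, and to Cox6a1 (1029 and 1080), Cox4i1 (995 and 947) and Cox6c (826 and 993) of complex IV. Ndufa4, named for complex I and now assigned to complex IV, followed at 778 and 845 TPM. Complex II stood lowest of the 5: Sdhb, the iron-sulfur subunit, had 217 and 213 TPM in the wild type, and Sdha, Sdhc and Sdhd had between 130 and 144.

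No single gene of the set passed limma's test in any of the 3 comparisons after Benjamini-Hochberg adjustment over all 14518 genes. Over all genes, 6 (0.0413%) passed in homozygous against wild type, 5 (0.0344%) in heterozygous against wild type and 2 (0.0138%) in homozygous against heterozygous libraries. A fit of limma without the intensity trend also called no member. What the nuclear genes showed was a small difference in a shared direction. In homozygous against wild-type libraries, 74 of 79 had the higher mean, and in 53 of 79 (67.1%) both homozygous libraries lay above both wild-type ones, against 23.6% of all genes tested. That share was higher among other short genes, at 42.0% of protein-coding genes under 600 bases. The opposite order, both below, was seen for 2 of 79, against 30.7% of all genes. At an unadjusted p under 0.05, 27 of 79 were higher (8.35% of all genes) and 0 were lower (9.8% of all genes).

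The heterozygous libraries gave a similar picture against the same wild-type libraries, which both comparisons share. Here 71 of 79 had the higher mean, 61 of 79 (77.2%) lay above without overlap, against 17.1% of all genes, and 1 lay below, against 28.9%. Of other protein-coding genes under 600 bases, 41.3% lay above. At an unadjusted p under 0.05, 28 were higher (6.42% of all genes) and 0 lower (7.63%). The median difference of the nuclear genes on the log2(TPM + 1) scale was 0.18 in homozygous and 0.21 in heterozygous against wild-type libraries, or 1.14 and 1.16-fold, while the median over all genes tested was -0.04 and -0.06. Summed, the nuclear genes reached 23260 and 23670 TPM in the wild type, 27380 and 27050 in heterozygotes and 28100 and 26500 in homozygotes. The sums of the floxed genotypes overlap each other and lie above both wild-type sums.

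**Figure D1:**
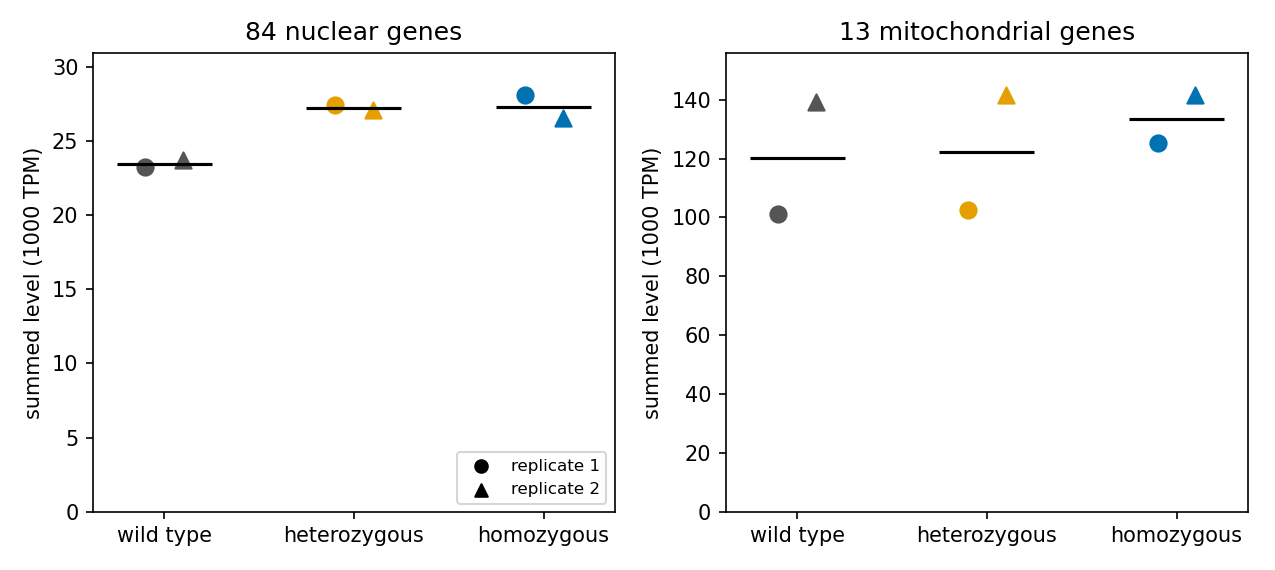
Summed TPM of the 84 nuclear (left) and 13 mitochondrial genes (right) in each library, with circles for replicate 1, triangles for replicate 2 and a line at the mean of each genotype. Nuclear sums are 23260 and 23670 TPM in the wild type and 26500 to 28100 in the floxed genotypes, while the mitochondrial sums of the genotypes overlap.

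Heterozygous and homozygous libraries did not separate. In homozygous against heterozygous libraries, 8 of 79 nuclear genes lay above without overlap (15.3% of all genes) and 8 below (13.7%), and the median difference was -0.01. Ndufc2, an accessory subunit of complex I, was the 1 gene higher at an unadjusted p under 0.05 (1.14% of all genes), and 0 were lower (0.902%). Ndufc2 was listed at 439 and 424 TPM in the wild type, 375 and 409 in heterozygotes and 543 and 445 in homozygotes, so its heterozygous values were the lowest. The smallest adjusted p over the members in this comparison was 0.9999 (limma).

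Markers of other cell types moved with the same split of the libraries. Their counts are read against 23.6 and 17.1% of all genes above wild type without overlap in homozygous and heterozygous libraries. Each of 15 genes of motile ciliated cells lay above wild type without overlap in both floxed genotypes, with summed levels of 23.8 and 18.9 TPM in the wild type, 586 and 191 in heterozygotes and 485 and 343 in homozygotes. The cilia genes Ccdc153 and Tmem212 rose in both (adjusted p 0.0018 and 0.0065 in homozygous, 0.0030 and 0.0122 in heterozygous libraries, limma), and Tmem212 had 0 TPM in each wild-type library. Ccdc153, Tmem212 and Dynlrb2, among others, were under 1 TPM in both wild-type libraries. They reached the limit of 1 TPM on the mean over all libraries only through the floxed ones. Their place above wild type and their tests were thus partly set by that limit, and the shares of all genes are no like comparison. Of the microglia genes, 9 of 10 lay above wild type in each floxed genotype (sums of 221 and 262 TPM in the wild type, 351 to 537 in the floxed libraries). For astrocytes it was 8 and 7 of 10 genes (1897 and 2125 TPM in the wild type, 2944 to 3885 in the floxed libraries).

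Choroid plexus genes lay above wild type for 11 of 11 tested genes in homozygous and 6 of 11 in heterozygous libraries. For these and the counts above wild type that follow, the shares of all genes were 23.6 and 17.1%. Folr1, Otx2 and others of the choroid plexus list were under 1 TPM in both wild-type libraries. They reached the limit of 1 TPM on the mean only through the floxed libraries, so the limit partly set these counts. The choroid plexus sums were 202 and 161 TPM in the wild type, 12290 and 195 in heterozygotes and 7059 and 541 in homozygotes. In the other direction, 8 and 7 of 12 genes of dividing cells and 6 and 4 of 12 neuronal genes lay below wild type in homozygous and heterozygous libraries, against 30.7 and 28.9% of all genes. Among the neuronal genes Nefl, Snap25 and Syt1, named after their values were seen, had higher means in homozygous libraries, and Syt1 lay above wild type without overlap. Of 9 oligodendrocyte lineage genes 5 lay above and 1 below wild type in each floxed genotype, and of 8 endothelial genes 0 lay above in either. Of 5 erythroid genes 0 lay above in homozygous and 1 in heterozygous libraries. The part of these cell types in the difference of the respiratory genes was not tested. Without both libraries rich in Ttr, the homozygous library left lay above both wild-type libraries for 57 of 79 nuclear genes (35.8% of all genes) with a median of 0.14, and the heterozygous one for 66 of 79 (27.0% of all genes) with a median of 0.18.

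By complex, the nuclear genes of complex IV differed most and those of complex II least. The medians in homozygous and heterozygous against wild-type libraries were 0.28 and 0.27 for complex IV, 0.18 and 0.24 for complex V, 0.18 and 0.18 for complex I, 0.14 and 0.14 for complex III, and 0.05 and 0.05 for complex II. Both floxed libraries lay above wild type for 12 and 13 of 14 tested complex IV genes, 10 and 13 of 16 of complex V, 23 and 26 of 37 of complex I, 6 and 7 of 8 of complex III and 2 and 2 of 4 of complex II, against 23.6 and 17.1% of all genes. Genes were placed by name, so Ndufa4 and Ndufa4l2 counted in complex I. These counts and medians are descriptions, and the differences between complexes were not tested.

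**Figure D2:**
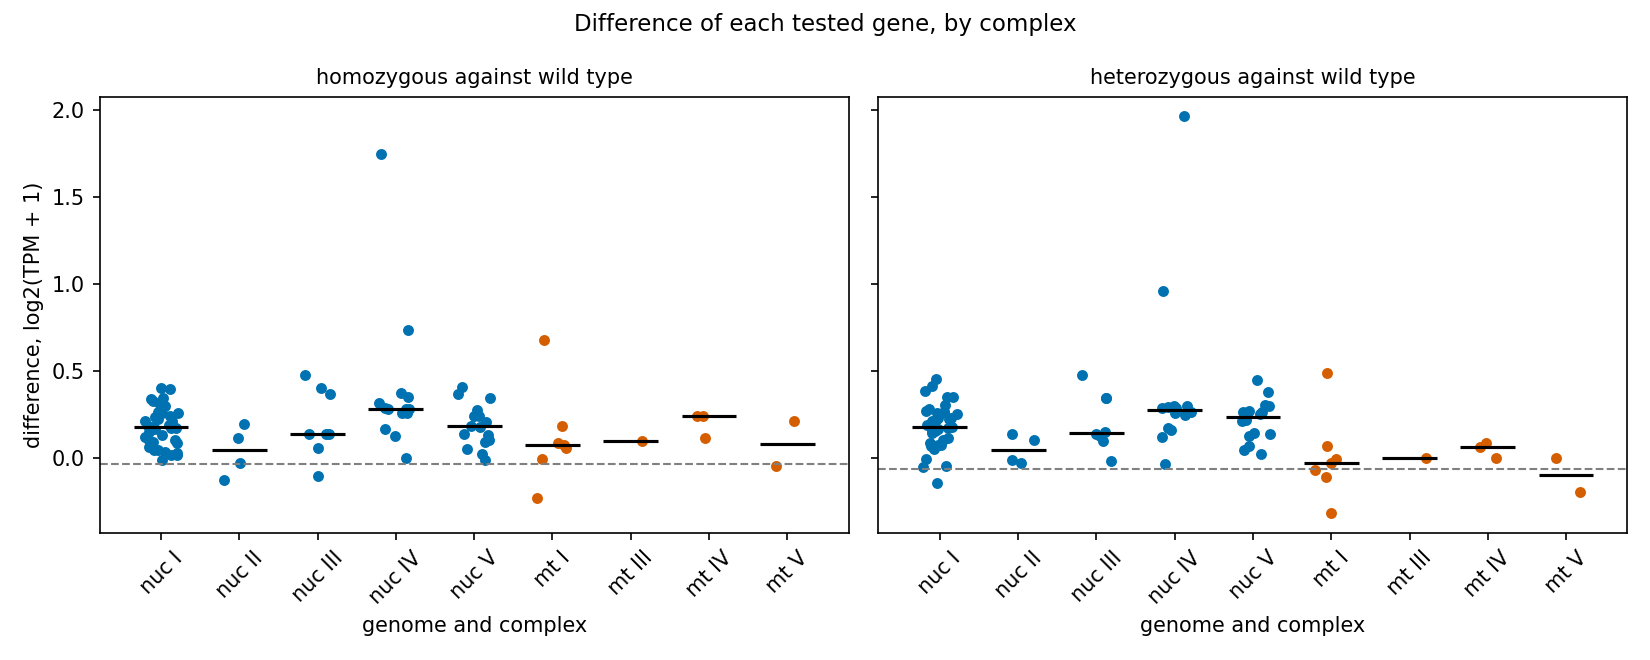
Difference of every tested gene on the log2(TPM + 1) scale in homozygous (left) and heterozygous (right) against wild-type libraries, by genome (nuc, nuclear; mt, mitochondrial) and complex. Each dot is a gene, black lines are group medians and the dashed line is the median of all genes tested (-0.04 and -0.06); most nuclear genes of complexes I, III, IV and V lie above it, and Cox6b2 stands highest at 1.74 and 1.96.

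Complex III held the gene with the smallest p. Uqcrq, a small subunit that lies next to cytochrome b, was listed at 261 and 281 TPM in the wild type, 389 and 367 in heterozygotes and 389 and 367 in homozygotes. The floxed libraries lay well above wild type and could not be told from each other. On the log2 scale it differed by 0.48 ± 0.09 (SE) in both comparisons, with adjusted p of 0.088 and 0.17 (limma). Uqcr10 and Uqcr11, likewise small subunits, behaved similarly: Uqcr10 had 379 and 366 TPM in the wild type, 486 and 463 in heterozygotes and 487 and 474 in homozygotes (0.37 ± 0.08, adjusted p 0.12, in homozygous against wild type). Uqcr11 had 384 and 375, then 518 and 447, then 543 and 463 TPM (0.40 ± 0.12, adjusted p 0.16).

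The larger subunits of complex III differed less than Uqcrq, Uqcr10 and Uqcr11, and so did Uqcrb and Uqcrh, also small subunits. Uqcrc1, a core protein, differed by 0.14 and 0.13 and Uqcrfs1, the Rieske iron-sulfur protein, by 0.06 and 0.10 in homozygous and heterozygous libraries. Uqcrc2, the other core protein, was at 179 and 180 TPM in the wild type and 172 and 163 in homozygous libraries (-0.10 ± 0.08, adjusted p 0.53, limma). Both homozygous libraries lay below wild type. Uqcrh, the hinge protein and most abundant nuclear gene of the complex, differed by 0.14 in both comparisons, close to Uqcrc1. It was at 547 and 518 TPM in the wild type and 580 and 593 in homozygous libraries. Uqcrb differed by 0.14 and 0.15, and its homozygous libraries overlapped wild type. Uqcrc1, Uqcrfs1, Uqcrc2 and Uqcrb were named after their values were seen.

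In complex IV the abundant subunits moved alongside each other. Cox8a, the ubiquitous form of subunit 8, had 746 and 740 TPM in the wild type, 909 and 904 in heterozygotes and 947 and 976 in homozygotes. The groups did not overlap and the pairs of replicates were close. Its difference was 0.37 ± 0.08 in homozygous (adjusted p 0.12) and 0.29 ± 0.08 in heterozygous against wild-type libraries (adjusted p 0.28, limma). Cox4i1, the regulatory subunit, differed by 0.26 and 0.30, Cox6a1 by 0.28 and 0.24 and Cox6c by 0.35 and 0.29, each without overlap with wild type in either genotype. Cox5a, which binds a thyroid hormone metabolite and was named after its values were seen, was an exception, at 327 and 336 TPM in the wild type, 354 and 366 in heterozygotes and 347 and 317 in homozygotes.

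The isoform pairs of complex IV were dominated by the ubiquitous form. Cox4i2, the lung and low-oxygen form of subunit 4, made up 0.368 to 0.618% of the summed Cox4i1 and Cox4i2 level, and Cox7a1, the heart and muscle form, 0.610 to 1.73% of Cox7a1 and Cox7a2. Cox6b2, the form known from testis, was the member with the largest difference. It was listed at 3.48 and 5.78 TPM in the wild type, 34.4 and 12.02 in heterozygotes and 22.3 and 13.6 in homozygotes. All 4 floxed libraries lay above both wild-type ones, with a wide spread between the heterozygous replicates. Its share of Cox6b1 plus Cox6b2 was 0.604 and 1.07% in wild type, 5.24 and 1.90% in heterozygotes and 3.50 and 2.14% in homozygotes.

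Cox6b2 did not pass with all libraries: the log2 difference was 1.74 ± 0.48 in homozygous (adjusted p 0.16) and 1.96 ± 0.48 in heterozygous against wild-type libraries (adjusted p 0.24, limma). It did pass in homozygous against wild type when heterozygous replicate 1 (adjusted p 0.0384), heterozygous replicate 2 (0.0366) or both of them (0.0389) were left out, and in heterozygous against wild type without heterozygous replicate 2 (2.68, adjusted p 0.0163), where the remaining library is assumed to vary like the other groups. Without heterozygous replicate 1 the latter difference was 1.24 (adjusted p 0.59), and without a wild-type or homozygous library the homozygous difference was 1.41 to 2.08 (adjusted p 0.19 to 0.56). Without both libraries rich in Ttr the homozygous difference was 1.41 (adjusted p 0.0549). Cox7a1 had 2.99 and 2.60 TPM in the wild type, 7.84 and 5.12 in heterozygotes and 4.69 and 6.01 in homozygotes (0.74 ± 0.25 and 0.96 ± 0.25, adjusted p 0.21 and 0.26). Both genes are low, and the added pseudocount of 1 TPM understates such differences.

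**Figure D3:**
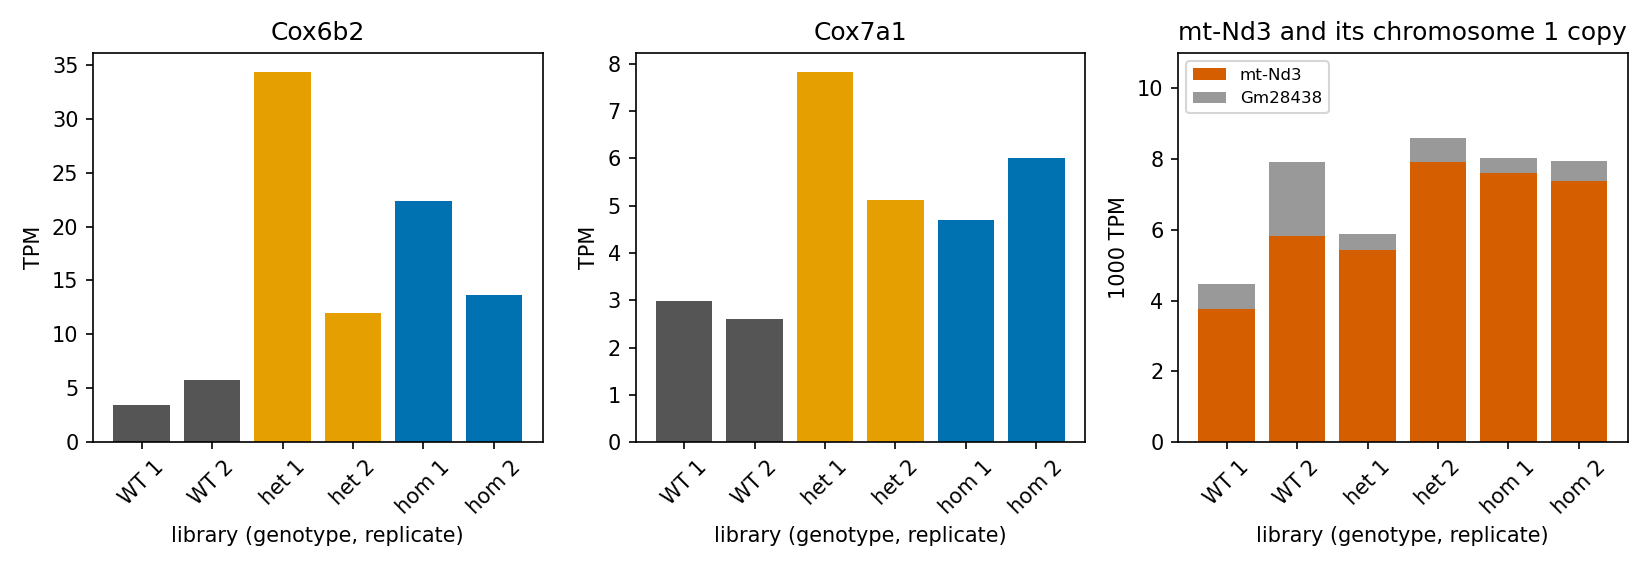
TPM of Cox6b2 (left) and Cox7a1 (middle) in each library, and of mt-Nd3 stacked with its nuclear copy Gm28438 (right); het and hom are the floxed genotypes and the number is the replicate. Cox6b2 and Cox7a1 are lowest in both wild-type libraries, and the grey share of the copy is largest in wild type.

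Complex I, with 37 nuclear genes, can be divided into the 7 core subunits that carry the flavin and iron-sulfur clusters and 30 accessory subunits under its Nduf names, a division made after the values were seen. Ndufa4 and its relative Ndufa4l2 were counted among the accessory ones by name. The core genes had medians of 0.09 and 0.09 in homozygous and heterozygous against wild-type libraries, with 4 and 5 of 7 above without overlap. The accessory genes had medians of 0.20 and 0.22, with 19 and 21 of 30 above, against 23.6 and 17.1% of all genes. The shares above without overlap were thus similar for core and accessory genes. Ndufa1, an accessory subunit encoded on the X chromosome, had the smallest p of complex I in homozygous libraries: 198 and 197 TPM in the wild type, 292 and 253 in heterozygotes and 281 and 243 in homozygotes (0.40 ± 0.11, adjusted p 0.15, limma). Ndufb8 had 262 and 269, then 347 and 331, then 339 and 314 TPM, a difference of 0.30 and 0.35. Ndufs1, the largest core subunit, stayed within a narrow range at 79.9 to 88.5 TPM over all libraries. Ndufa4l2, the low-oxygen relative of Ndufa4, made up 0.735 to 1.44% of both, with 6.26 to 14.1 TPM. Its heterozygous values (9.90 and 9.98) lay just above the wild-type ones (9.82 and 6.26), and its homozygous values (7.38 and 14.1) overlapped both.

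Complex II showed no common direction. Sdhd, a membrane anchor, had 143 and 143 TPM in the wild type, 156 and 152 in heterozygotes and 161 and 168 in homozygotes (0.20 ± 0.08 in homozygous against wild type, adjusted p 0.27). Sdhc, the other anchor, had 144 and 130 TPM in the wild type and 127 and 123 in homozygous libraries (-0.13 ± 0.10, adjusted p 0.51). Sdha, the flavoprotein, ranged only from 135 to 143 TPM, with overlapping genotypes.

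In complex V, Atp5b was at 1217 and 1235 TPM in the wild type, 1499 and 1349 in heterozygotes and 1511 and 1325 in homozygotes, above wild type without overlap (0.21 in both comparisons, adjusted p 0.36 and 0.43, limma). Its partner in the catalytic head, Atp5a1, named after its values were seen, was at 592 and 594 TPM in the wild type and at 590 to 616 in the floxed libraries, a difference of 0.02. The membrane rotor is built from the c subunit, whose mature protein is the same from Atp5g1, Atp5g2 and Atp5g3. Atp5g3 supplied 53.7 to 57.3% of their summed level, Atp5g1 26.9 to 30.4% and Atp5g2 14.2 to 18.1%. Each of these 3 genes lay above wild type in both genotypes: Atp5g1 by 0.35 and 0.30, Atp5g2 by 0.41 and 0.45 and Atp5g3 by 0.24 and 0.25.

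Atp5e, the epsilon subunit, differed more between replicates than between genotypes. It was listed at 307 and 588 TPM in the wild type, 407 and 680 in heterozygotes and 367 and 692 in homozygotes. Its genotypes overlapped, with differences of 0.24 and 0.31 in homozygous and heterozygous against wild-type libraries. Replicate 2 was above replicate 1 by 0.94, 0.74 and 0.91 on the log2 scale, the largest such gap among the 79 tested nuclear genes in each genotype. Over those genes the median gap between replicates was -0.01, -0.04 and -0.11. Atp5e was singled out after its values were seen, and the labels do not say what a replicate number shares.

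The mitochondrial mRNAs were also higher in replicate 2. Replicate 2 was above replicate 1 for 13 of 13 genes in wild type, 13 of 13 in heterozygous and 12 of 13 in homozygous libraries, with median log2 gaps of 0.49, 0.48 and 0.21. Their sums were 101300 and 139100 TPM in the wild type, 102700 and 141500 in heterozygotes and 125200 and 141700 in homozygotes. The genotypes overlap fully, and the low values are those of replicate 1.

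**Figure D4:**
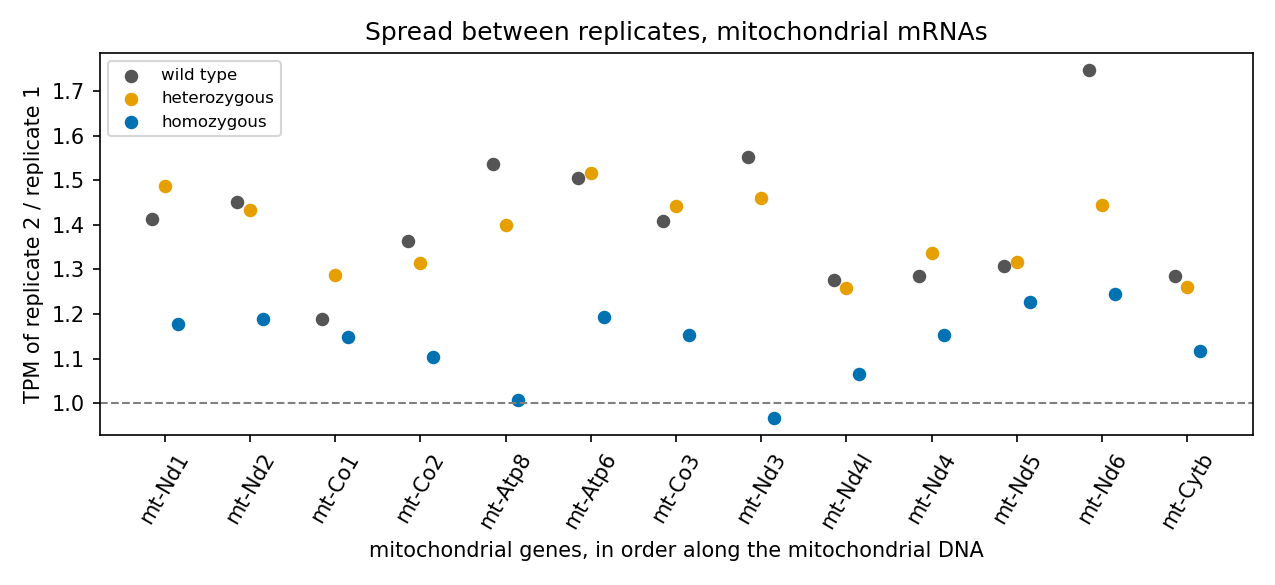
Ratio of TPM in replicate 2 to replicate 1 for each of the 13 mitochondrial mRNAs, in their order along the mitochondrial DNA, by genotype. All points but mt-Nd3 in homozygous libraries (0.968) lie above the dashed line at 1, with the widest ratio for mt-Nd6 in wild type (1.75).

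Against wild type, the median difference of the mitochondrial genes was 0.10 in homozygous and 0.00 in heterozygous libraries, and 2 and 0 of 13 lay above wild type without overlap (23.6 and 17.1% of all genes). The homozygous median was -0.11 without wild-type replicate 1 and 0.34 without wild-type replicate 2, so its direction rested on those libraries. In homozygous against heterozygous libraries the median was 0.15, all 13 means were higher in homozygous libraries, and 0 of 13 lay above without overlap (15.3% of all genes). The ratio of the mitochondrial to the nuclear sum was 4.36 and 5.88 in wild type, 3.75 and 5.23 in heterozygotes and 4.46 and 5.35 in homozygotes. The ratios of the 3 genotypes overlap.

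Levels among the mitochondrial genes spanned about an order of magnitude. The 3 subunits of the complex IV core and mt-Atp6 were highest. mt-Co2 was at 16119 and 21982 TPM in the wild type, mt-Co3 at 14127 and 19888 and mt-Co1 at 13633 and 16206. mt-Atp6 of the ATP synthase membrane part had 13057 and 19650 TPM, and mt-Atp8, whose reading frame overlaps it, 3284 and 5045. mt-Nd1 (9004 and 12729), mt-Cytb, the cytochrome b of complex III (8818 and 11334), mt-Nd4l (6896 and 8800) and mt-Nd4 (5223 and 6715) came next. mt-Nd2 had 3263 and 4732 TPM, and mt-Nd5 (2391 and 3128) and mt-Nd6 (1773 and 3096) were lowest. mt-Nd6 is the only protein gene on the light strand, and the counting of strand is not given in the sources used here, nor is the splitting of reads between the overlapping pairs mt-Atp8 and mt-Atp6 or mt-Nd4l and mt-Nd4.

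By gene, the differences in homozygous and heterozygous against wild-type libraries lay between -0.23 and 0.24 and between -0.32 and 0.09 for the 12 mitochondrial genes other than mt-Nd3. mt-Co1 was, with mt-Nd3, the gene that lay above wild type in homozygous libraries without overlap, at 16393 and 18813 TPM (0.24 ± 0.19, adjusted p 0.52, limma). mt-Nd6 had the lowest differences, -0.23 ± 0.29 and -0.32 ± 0.29.

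mt-Nd3, a membrane subunit of complex I, had the largest difference of the mitochondrial genes in both comparisons with wild type. It was listed at 3760 and 5835 TPM in the wild type, 5430 and 7931 in heterozygotes and 7612 and 7368 in homozygotes. The homozygous values lay above both wild-type ones and of the heterozygous values 1 lay between the wild-type ones and the other above them. The difference was 0.68 ± 0.25 in homozygous (adjusted p 0.24) and 0.49 ± 0.25 in heterozygous against wild-type libraries (adjusted p 0.43, limma). Without wild-type replicate 1 these were 0.36 and 0.17, without wild-type replicate 2 the heterozygous value was 0.80, and without heterozygous replicate 1 or 2 it was 0.76 or 0.21. A nuclear copy, Gm28438, an unprocessed pseudogene on chromosome 1 (chr1:24612775-24613119, GRCm38), matches 345 bases of mt-Nd3 (chrM:9459-9806, plus strand) at 99.7% identity. The single mismatch is T3C, mt-Nd3 having the first base of the token and the copy the last, counted from 1 at the 5′ end of mt-Nd3. The first 60 bases of both, with that position in capitals, show how little separates them.
mt-Nd3: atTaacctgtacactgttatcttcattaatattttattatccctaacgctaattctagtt
Gm28438: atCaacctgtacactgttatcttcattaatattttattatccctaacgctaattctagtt

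The copy was listed at 704 and 2071 TPM in the wild type, 459 and 667 in heterozygotes and 407 and 584 in homozygotes. Its share of the summed level was 15.8 and 26.2% in wild type, 7.79 and 7.76% in heterozygotes and 5.07 and 7.34% in homozygotes, highest in both wild-type libraries. The sums of gene and copy were 4464 and 7906 TPM in the wild type, 5889 and 8598 in heterozygotes and 8019 and 7952 in homozygotes, and with copies added the homozygous difference was 0.43 (adjusted p 0.46). Levels of such near-identical genes depend on how reads that match both were shared out, which is not given in the sources used here, and are uncertain.

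The same holds for Ndufb4, an accessory subunit of complex I named after its values were seen. Its processed pseudogene Gm3244 (chr15:73809507-73809896) is identical over 390 bases. Ndufb4 itself was listed at 67.7 and 85.1 TPM in the wild type and 101 and 91.9 in homozygous libraries, and the copy took 77.6 to 81.3% of the summed level in every library. Sums were 352 and 380 TPM in the wild type, 411 and 496 in heterozygotes and 502 and 441 in homozygotes, so after adding the copy the floxed libraries lay above both wild-type ones and overlapped each other.

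The nuclear genes are short, and the size of the difference varied with transcript length. Across the 79 tested nuclear genes, the difference had a Spearman correlation with the length of the principal transcript of -0.53 in homozygous and -0.49 in heterozygous against wild-type libraries. Across 13857 other protein-coding genes it was -0.17 and -0.24. Both comparisons use the same wild-type libraries, and genes are not independent replicates. For transcripts under 600 bases the members' median was 0.28 and 0.29, against 0.17 and 0.18 for the other genes of that length. From 600 up to 800 bases it was 0.23 and 0.18 against 0.14 and 0.16, and from 800 up to 1200 bases 0.20 and 0.22 against 0.05 and 0.07. From 1200 up to 2000 bases it was 0.09 and 0.10 against 0.02 and 0.00, and for the 7 members of 2000 bases or more 0.02 and -0.01 against -0.06 and -0.09. Where several transcripts shared the best principal rank, the longest was taken and shorter ones were not considered. That put Ndufb2 at 4371 and Atp5g1 at 4715 bases, and both lay above wild type without overlap in both comparisons.

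In each length class the members' median was above that of the other genes. Under 600 bases, 16 and 17 of 19 members lay above wild type without overlap in homozygous and heterozygous libraries. Of the other genes of that length, 42.0 and 41.3% did. From 600 up to 800 bases it was 12 and 11 of 18 against 43.0 and 44.5%. From 800 up to 1200 bases it was 14 and 17 of 18 against 32.4 and 30.65%. From 1200 up to 2000 bases it was 9 and 14 of 17 against 28.8 and 21.4%. For 2000 bases or more it was 2 and 2 of 7 against 21.2 and 13.8%. Of the 19 members under 600 bases, 2 and 3 exceeded the upper quartile of the other genes of that length. From 600 up to 800 bases 1 and 2 of 18 did, and from 800 up to 1200 bases 5 and 7 of 18. From 1200 up to 2000 bases it was 1 and 4 of 17, and for longer ones 2 and 2 of 7. Under 800 bases members thus passed that quartile less often than the other genes. In homozygous against heterozygous libraries the correlation was -0.02 for the members and 0.06 for the other genes. The core subunits of complex I had a median transcript length of 1623 bases and the accessory ones 748 bases. The part of transcript length in the differences between subunits and complexes was not tested.

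**Figure D5:**
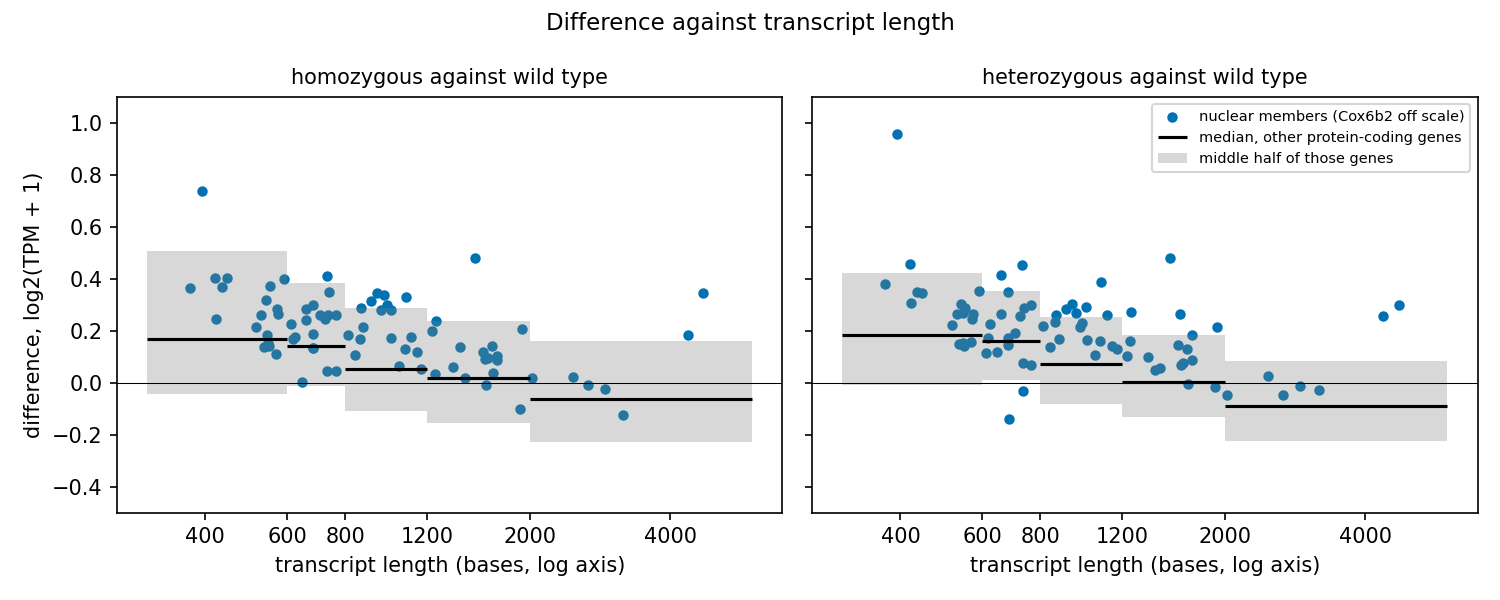
Difference on the log2(TPM + 1) scale against the length of the principal transcript (log axis) for the tested nuclear genes, in homozygous (left) and heterozygous (right) against wild-type libraries; Cox6b2 lies above the axis. Black lines and grey boxes are the median and middle 50% of other protein-coding genes in each length class, and both genes and boxes descend with length.

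The promoters of the nuclear genes are known for sites of nuclear respiratory factor 1 (NRF1), of the ETS factor GABP, also called nuclear respiratory factor 2, and of YY1. RefSeq windows on GRCm38.p6, 300 bases long with 250 before and 50 after the start, were available for 66 of the nuclear members and were searched on both strands. The NRF1 core GCGCATGC occurred in 15.2% of the 66 members and in 3.05% of 27025 genes, the ETS core CCGGAAG in 24.2 and 9.93% and the YY1 core AAGATGG in 15.2 and 7.28%. A match is a stretch of letters and not a measured site, and a link with the differences was not tested. Cox8a, Uqcr10, Atp5g1, Ndufa1, Cox6b2 and Ndufb8 held no match in the 250 bases before the start. Their unadjusted p in homozygous against wild-type libraries was smaller than for both genes printed next (limma). Over the full 300 bases Cox8a held the ETS core and Ndufb8 the YY1 core, each ending after the start. The 250 bases before the start of Cox6a1 and Uqcr11 are printed because both genes lay above wild type in both genotypes and hold matches there. Capitals mark those matches. In Cox6a1 they are GCGCATGCGC, in which the NRF1 core is read on both strands with overlap, and, near the start, the ETS core read on the opposite strand. In Uqcr11 they are the ETS core on the gene's own strand, and its NRF1 match lies after the start and is not printed. The stretches lie at chr5:115348959-115349208 and chr10:80406822-80407071, both for genes on the minus strand, and are written 5′ to 3′ along the gene. In GENCODE the exon of each gene begins within the last bases of the stretch.
Cox6a1: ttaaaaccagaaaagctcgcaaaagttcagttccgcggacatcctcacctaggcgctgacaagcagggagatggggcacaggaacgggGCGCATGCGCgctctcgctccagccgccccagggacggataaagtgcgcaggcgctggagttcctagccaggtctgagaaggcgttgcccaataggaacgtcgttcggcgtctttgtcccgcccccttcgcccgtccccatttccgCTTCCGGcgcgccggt
Uqcr11: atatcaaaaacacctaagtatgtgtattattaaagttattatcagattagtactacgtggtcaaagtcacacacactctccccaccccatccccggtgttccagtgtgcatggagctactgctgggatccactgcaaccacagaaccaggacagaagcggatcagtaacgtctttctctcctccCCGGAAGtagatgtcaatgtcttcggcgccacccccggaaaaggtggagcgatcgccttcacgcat

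For genes that regulate or serve the respiratory chain, the counts below are read against 23.6 and 17.1% of all genes above, and 30.7 and 28.9% below, wild type in homozygous and heterozygous libraries. Among 12 regulators, 2 lay above and 7 below wild type in homozygous libraries, with a median of -0.10, and 2 above and 4 below in heterozygous libraries, with a median of -0.06. Nrf1 itself was at 28.2 and 24.6 TPM in the wild type, 27.3 and 22.1 in heterozygotes and 20.3 and 21.6 in homozygotes (-0.32, adjusted p 0.31, limma), and Gabpb1, a GABP subunit, at 32.6 and 25.7, then 24.6 and 23.5, then 20.8 and 22.7 TPM (-0.40, adjusted p 0.23). Sirt3, with the smallest p of the 12, was higher in homozygous libraries (0.33, adjusted p 0.20, limma), as were the means of 4 regulators in all, with 8 lower. Gabpa, the other GABP subunit, and Yy1, both named after their values were seen, differed by -0.10 and -0.11 (adjusted p 0.68 and 0.60). Of 29 tested genes of mitochondrial DNA and RNA upkeep, 0 lay above and 9 below wild type in homozygous libraries (median -0.06), and 2 above and 10 below in heterozygous ones (median -0.05), so the shares below were near those of all genes. None of the genes of these lists passed the adjusted test.

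The other mitochondrial lists lay closer to the background or between. Of 78 mitochondrial ribosomal proteins, 19 and 21 lay above wild type in homozygous and heterozygous libraries (medians 0.04 and 0.05), and of 49 assembly factors 12 and 13 (medians 0.04 and 0.02). Citrate cycle and pyruvate genes lay above for 14 and 6 of 24 (medians 0.13 and 0.08), electron carriers and ubiquinone synthesis for 10 and 4 of 19 (0.13 and 0.06), and import and outer membrane proteins for 13 and 11 of 27 (0.04 and 0.04). In that list Chchd10, a protein of the intermembrane space, was at 27.1 and 39.1 TPM in the wild type, 89.4 and 71.2 in heterozygotes and 88.1 and 89.5 in homozygotes, far above wild type in all 4 (1.42, adjusted p 0.061, and 1.27, adjusted p 0.12, limma). Coa6, an assembly factor of complex IV, was at 34.9 and 42.2 TPM in the wild type and 54.9 to 58.7 in the floxed libraries (0.57 and 0.55, adjusted p 0.11 and 0.22). Among partners of the chain such as inhibitors and supercomplex factors, 4 and 6 of 11 lay above wild type (0.07 and 0.11). These counts include Cox7a2l, which is also a member of the set and lay above wild type in both comparisons.

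Genes induced by low oxygen were examined beside Cox4i2 and Ndufa4l2. Of 11 tested, 8 and 4 lay above wild type in homozygous and heterozygous libraries, with medians of 0.30 and 0.24, against 23.6 and 17.1% of all genes above. Car9, a carbonic anhydrase, was at 0.04 and 0.05 TPM in the wild type, 2.95 and 1.51 in heterozygotes and 2.51 and 3.21 in homozygotes (1.88, adjusted p 0.070, limma). Car9 reached the limit of 1 TPM on the mean only through the floxed libraries, so its place above wild type was partly set by that limit. No gene of this list passed the adjusted test in these comparisons.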

How the data were processed

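Poly(A) RNA of 6 libraries (2 per genotype) was sequenced paired-end, per the labels. The authors deposited 1 table of TPM values, which correct for transcript length and add up to 1000000 in each library. TopHat 2.0.11 (alignment, mm10) and Cufflinks 2.2.1 are named per the labels' design text. Per the submitters' processing notes FastQC and RSEM were used, with builds mm10 and GRCm38.

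From this table, log2(TPM + 1) was computed for the 14518 genes averaging 1 TPM or more. All 6 libraries entered limma 3.58.1 (R 4.3.3, intensity trend, genotype as the sole term, 3 residual degrees of freedom), with Benjamini-Hochberg adjustment over all genes at 0.05. The fit was tested on simulated data. Fold values are on the log2(TPM + 1) scale, which understates changes of low genes. Non-overlap means that both libraries of 1 genotype lie above, or below, both of the other.

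Positions and transcript lengths came from GENCODE vM21 (GRCm38, matched by identifier) and near-identical copies (at least 150 bases at 95% identity) from BLAST 2.17.0. Members and the 18 gene lists were chosen with earlier results of these data known. Named were the mitochondrial genes, the 3 most abundant nuclear genes of each complex, the 4 nuclear genes with the smallest p in each comparison, isoform genes, genes at 0, and up to 4 genes of a list. Alternatives changed the pseudocount, filter, scaling, copies, replicate block, trend and libraries used.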

Additional observations from a re-analysis of the deposited data

How the results depend on the processing

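The count of members past the adjusted threshold stayed at 0 in homozygous against heterozygous libraries under every alternative run. In homozygous against wild type it became 1 with only both of these genotypes in the fit (Cox6b2), and 0 to 1 when a library was left out. In heterozygous against wild type it was 0 to 1 when a library was left out. With the replicate block it was 1 in homozygous against wild type (Uqcrq, adjusted p 0.0489, limma), and with the block joined with rescaling without mitochondrial RNA it was 0 (Uqcrq, adjusted p 0.0501). The labels do not say that replicate numbers pair libraries, and over all genes 1 of the 3 correlations was not positive, so they were not treated as pairs: same-numbered libraries deviated together with r of 0.21 (wild type and heterozygous), -0.09 (wild type and homozygous) and 0.35 (heterozygous and homozygous). The mitochondrial genes and Atp5e were higher in replicate 2 in each genotype, except mt-Nd3 in homozygous libraries, and the block changed no other member's call.

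The median of the nuclear members kept its sign against wild type under every alternative. It was 0.14 to 0.25 (homozygous) and 0.18 to 0.22 (heterozygous) when a library was left out, and 0.27 in heterozygous against wild type with median-ratio scaling. In homozygous against heterozygous libraries it was -0.065 to 0.043. The count of nuclear members above heterozygous libraries without overlap was 8, but 4 with median-ratio scaling, 8 to 32 when a library was left out, and 27 (60.1% of all genes) without both libraries rich in Ttr. These counts of non-overlap under other settings were added after seeing the data, as was the block joined with rescaling. The ratio of the genomes has no value after rescaling without mitochondrial RNA. The unknown depth, 2 libraries per genotype and reads shared with copies limit all values.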
